A study of Arabidopsis thaliana with 24 samples.

Results

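Untreated shoots of oas-a1.1, a mutant of Arabidopsis thaliana, were compared with untreated shoots of the wild type (WT). The comparison used the 6 arrays whose labels name untreated shoots, 3 of oas-a1.1 and 3 of WT, out of 24 arrays in the series. All 22746 probe sets that are not array controls were tested. The mutant is a T-DNA insertion line, SALK_072213, and the WT is accession Col-0. The mutant stands for a single insertion line, and the labels describe no second allele and no complemented line. Plants of both genotypes spent 2 weeks on plates and 2 weeks in hydroponic culture, under days of 16 h light. The labels call the samples of a group biological replicates. Gene expression was measured on Affymetrix ATH1 arrays, and every value below is on the log2 scale of the authors' RMA values, so a difference of 1 is a doubling. The mutant difference was also set beside those of oas-a1.1 and WT shoots given cadmium chloride for 24 h and of untreated oas-a1.1 and WT roots, with 3 arrays a group. The cadmium dose is 50 µM in the series design and 50 mM in the sample protocols, so it is uncertain.

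OASA1 is the main cytosolic O-acetylserine(thiol)lyase, the enzyme that joins sulfide to O-acetylserine to make cysteine. Related enzymes carry out the same step in plastids and mitochondria. Cysteine is the entry point of reduced sulfur into methionine, glutathione and iron-sulfur clusters, and glutathione in turn serves redox control and the making of phytochelatins, the peptides that bind cadmium. The comparison of untreated shoots asks what the insertion changes in leaves in the absence of the metal.

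A single gene was listed for 13513 of the probe sets, several genes for 503 and none for 8730. Arrays correlated across probe sets at 0.983 to 0.989 within oas-a1.1, at 0.981 to 0.993 within WT and at 0.977 to 0.989 between the genotypes. The median standard deviation (SD) of a probe set over 3 arrays was 0.125 in oas-a1.1 and 0.137 in WT, and no 2 arrays of the series held identical values. The array's 25S ribosomal RNA control read 8.13, 9.44 and 10.36 in oas-a1.1 shoots, against 4.95, 5.68 and 11.07 in WT shoots. WT replicates 1 and 2 were therefore far below the other 4 arrays on this control, and counts of differences without such arrays are given below. The 3′ minus 5′ signal of the actin control was 1.69, 1.62 and 1.08 in oas-a1.1 and 1.96, 1.70 and 1.28 in WT. That of the GAPDH control was -0.55, -0.29 and -0.37 in oas-a1.1 and -0.04, -0.09 and -0.62 in WT. On GAPDH, too, WT replicates 1 and 2 stood apart from the other 4 arrays, above them. Rubisco activase (RCA), a leaf enzyme, read 12.30 to 12.53 in oas-a1.1 shoots and 12.30 to 12.58 in WT shoots, against 6.03 to 7.39 in untreated roots. The 3 measured root markers of the 10 listed, PYK10, EXPA7 and EXPA18, had a summed level of 6.14 to 6.24 in oas-a1.1 shoots and 6.07 to 6.36 in WT shoots, against 11.9 to 12.2 in roots. Both genotypes thus had the marker levels of shoots, and no floral marker of the list was measured.

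In total 331 probe sets, 1.46% of those tested, differed between oas-a1.1 and WT at an adjusted p under 0.05, here termed called. Of these, 146 (0.642%) were higher and 185 (0.813%) lower in the mutant. The change was at least 2-fold for 127 (0.558%), with 64 of the higher (0.281%) and 63 of the lower (0.277%) probe sets. All 331 had groups that did not overlap, as had 17.2% of all probe sets tested. A single gene was listed for 148 of the called probe sets, 1.1% of all probe sets with 1 gene, several for 4 and none for 179. The called probe sets with 1 gene had differences of 0.39 to 2.02 where higher and of -2.51 to -0.38 where lower. Probe sets with no listed gene reached 2.63 among the higher calls and -7.35 among the lower calls.

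**Figure D1:**
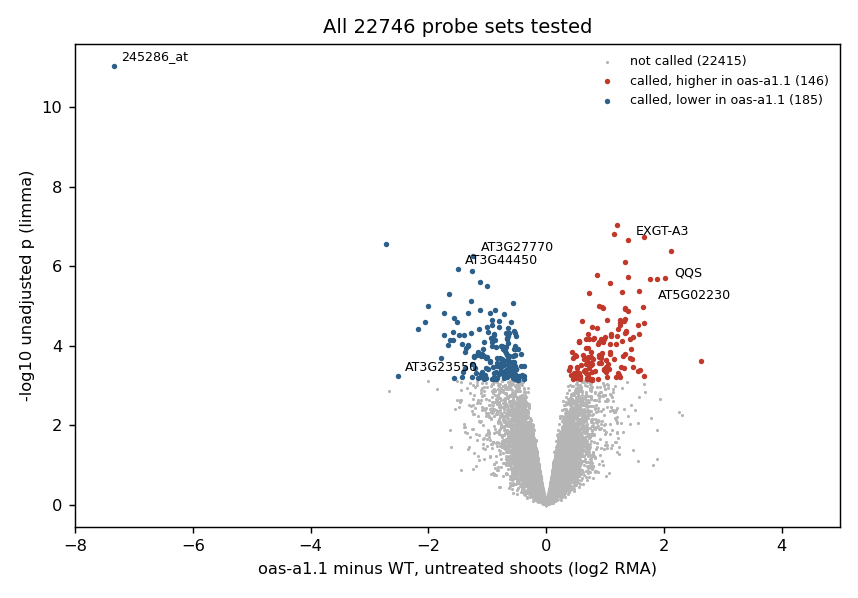
The difference between oas-a1.1 and WT in untreated shoots on the log2 scale (x axis) is plotted against -log10 of limma's unadjusted p (y axis) for all 22746 probe sets, 1 point each, with the 146 higher calls in red and the 185 lower calls in blue. One probe set, 245286_at, lies far from all others at -7.35.

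The number of calls depended on which arrays were used. Without mutant replicate 1 there were 563 calls, without mutant replicate 2 there were 58 and without mutant replicate 3 there were 118. Without WT replicate 1 there were 45, without WT replicate 2 there were 53 and without WT replicate 3 there were 838. When only arrays with a 25S level of at least 7 were kept, which leaves WT replicate 3 as the lone WT shoot array, assumed to vary like the other groups, 1 probe set was called. With the 25S level as a covariate 278 were called, 143 higher and 135 lower. Of the 331 probe sets, 183 (55.3%) had WT replicate 3 as the WT array nearest to the mutant mean, against 37.4% of all probe sets, and 190 (57.4%) had mutant replicate 1 as the mutant array nearest to the WT mean, against 38.6% of all. A set of 35 calls, 21 higher and 14 lower, was kept whichever of the 6 arrays was left out, and 15 of these have 1 gene.

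**Figure D2:**
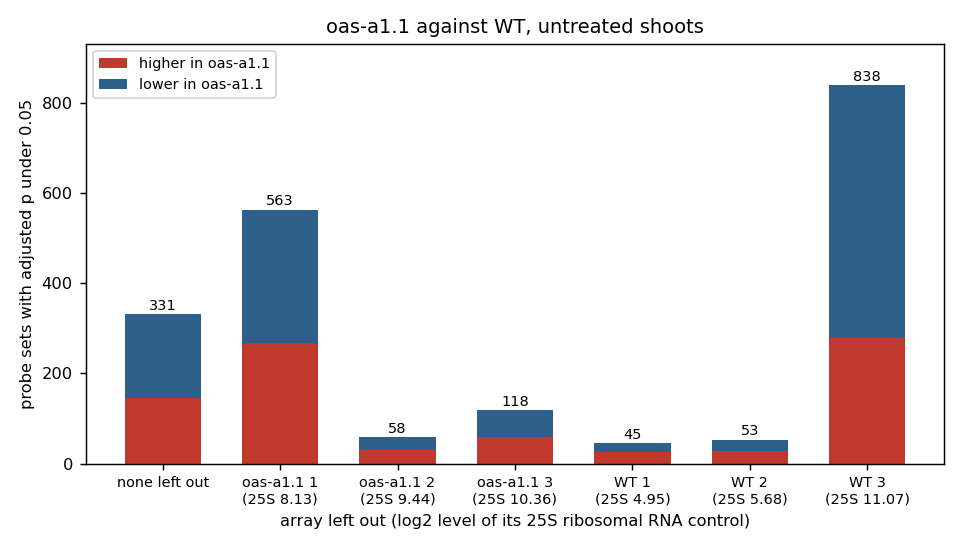
Bars give the number of probe sets called between oas-a1.1 and WT untreated shoots (y axis) with no array left out and with each of the 6 arrays left out in turn (x axis, with the 25S control level of that array), split into higher (red) and lower (blue). The count runs from 45 without WT replicate 1 to 838 without WT replicate 3, around 331 with all arrays.

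The probe set 245286_at, for which the annotation lists no gene, had the largest difference of all. It read 4.34, 4.24 and 4.27 in oas-a1.1 shoots, against 11.64, 12.28 and 10.97 in WT shoots, a difference of -7.35 ± 0.25 (limma standard error, SE; adjusted p = 2.05e-07). The mutant arrays lay near the low end of the array's scale, where the lowest value of any probe set was 3.27. Its difference was -6.49 in cadmium-treated shoots and -6.73 in untreated roots, so it was low in the mutant wherever it was measured. It was the 1 call left when only arrays with a 25S level of at least 7 were used. No probe set carries the name OASA1 in the annotation used here, and the transcript of the mutated gene was therefore not read by name.

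Among probe sets with 1 gene, the largest rise was that of QQS, an orphan gene of this species that is known to alter leaf starch content. QQS read 9.18, 8.98 and 8.93 in oas-a1.1 shoots and 7.22, 6.89 and 6.92 in WT shoots, a difference of 2.02 ± 0.22 (adjusted p = 0.00298), and the 2 groups were apart by more than their spread. AT5G02230, a hydrolase of the haloacid dehalogenase-like superfamily, read 7.47, 7.57 and 8.04 in oas-a1.1 and 6.04, 5.52 and 6.20 in WT (1.77 ± 0.20, adjusted p = 0.00298). EXGT-A3, a xyloglucan endotransglucosylase that cuts and rejoins wall polysaccharides, was at 10.36, 10.43 and 10.45 in oas-a1.1 and at 8.99, 9.14 and 8.93 in WT (1.39 ± 0.12, adjusted p = 0.000999). AT3G20340 was at 6.14, 5.93 and 6.77 in oas-a1.1 and at 4.97, 4.78 and 5.05 in WT (1.35 ± 0.18, adjusted p = 0.00816). These 4 rises were called with any one of the 6 arrays left out.

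The other 8 of the 12 largest rises were called with all arrays and lost when some single arrays were left out. AT2G34620, of the mTERF family of organelle gene regulators, averaged 7.10 ± 0.29 in oas-a1.1 and 5.50 ± 0.55 in WT (SD, n = 3 each; difference 1.60, adjusted p = 0.0372), and WT replicate 3 at 6.14 was the WT array nearest to the mutant. Its call was kept only without WT replicate 3 (range of the difference 1.44 to 1.92). AT4G28080 (REC2), one of the cytosolic REC proteins that set the space chloroplasts take up in a cell, was at 8.51, 9.28 and 9.01 in oas-a1.1 and at 7.59, 7.11 and 7.81 in WT (1.43, adjusted p = 0.0157). AT1G22160 (FLZ5), an FCS-like zinc finger protein of the family that binds the energy sensor kinase SnRK1, was at 9.06, 8.92 and 9.05 in oas-a1.1 and at 7.42, 7.19 and 8.12 in WT (1.43, adjusted p = 0.0268). WT replicate 3 was the highest WT array for both.

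AT5G62140 rose by 1.56 (adjusted p = 0.0127), AT3G19680, with a domain of unknown function, by 1.47 (adjusted p = 0.0155) and AT4G33660 by 1.35 (adjusted p = 0.0148). AT3G26510, with a PB1 protein interaction domain, rose by 1.35 (adjusted p = 0.0149) and AT2G24280, a serine carboxypeptidase family protein, by 1.35 (adjusted p = 0.0149). Leaving out mutant replicate 2 or WT replicate 2 ended the calls of all of these and of AT4G28080 and AT1G22160. Leaving out WT replicate 1 ended them too, except for AT4G33660, and leaving out mutant replicate 3 ended those of AT3G19680, AT1G22160, AT4G28080 and AT3G26510. Over the 6 leave-outs the differences ran from 1.36 to 1.83 for AT5G62140, from 1.43 to 1.53 for AT3G19680, from 1.24 to 1.71 for AT1G22160 and from 1.23 to 1.64 for AT4G28080. They ran from 1.18 to 1.50 for AT4G33660, from 1.24 to 1.53 for AT3G26510 and from 1.19 to 1.54 for AT2G24280, so no rise changed direction.

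The largest fall of a probe set with 1 gene was that of AT3G23550, a transporter of the MATE family. It read 8.13, 6.90 and 5.85 in oas-a1.1 shoots and 9.68, 9.84 and 8.90 in WT shoots, a difference of -2.51 ± 0.53 (adjusted p = 0.0449). The mutant arrays differed among themselves by almost as much as the group means did. AT3G44450 (BIC2), an inhibitor of the cryptochrome blue light receptors, fell to 7.13, 7.17 and 6.72 in oas-a1.1 against 8.69, 8.44 and 8.38 in WT (-1.50 ± 0.16, adjusted p = 0.00266). AT2G36220 read 6.32, 6.64 and 6.65 in oas-a1.1 and 7.84, 7.74 and 7.82 in WT (-1.26 ± 0.13, adjusted p = 0.00270). AT3G27770 read 8.77, 8.59 and 8.68 in oas-a1.1 and 9.88, 10.02 and 9.84 in WT (-1.23 ± 0.12, adjusted p = 0.00155). Of the 12 largest falls with a listed gene, AT3G44450, AT2G36220 and AT3G27770 were the ones called with any one of the 6 arrays left out.

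The other large falls were lost when some single arrays were left out. TBL45, of the family of wall polysaccharide acetyltransferases, was at 7.02, 5.53 and 5.91 in oas-a1.1 and at 7.52, 7.96 and 7.68 in WT (-1.57 ± 0.33, adjusted p = 0.0467). HTB11, a histone H2B, averaged 6.67 ± 0.32 in oas-a1.1 and 8.02 ± 0.24 in WT (SD, n = 3 each; -1.35, adjusted p = 0.0205). PUB24, a U-box ubiquitin ligase known to damp pattern-triggered immunity, averaged 6.53 ± 0.14 in oas-a1.1 and 7.86 ± 0.49 in WT (-1.33, adjusted p = 0.0183). AT1G78410, a VQ motif protein of the kind that binds WRKY factors, fell by 1.48 (adjusted p = 0.0150) and AT1G66940, a protein kinase-related gene, by 1.56 (adjusted p = 0.0112). AT1G73630, a calcium-binding EF-hand protein, fell by 1.28 (adjusted p = 0.0149), AT2G42040 by 1.26 (adjusted p = 0.0455) and AT1G17430, of the alpha/beta hydrolase superfamily, by 1.25 (adjusted p = 0.0322). WT replicate 1 ended the call of each of these 8 and of AT3G23550 when it was left out. Mutant replicate 2 did so for all but AT1G73630, mutant replicate 3 for all but AT1G73630 and AT1G66940, and WT replicate 2 for all but AT1G73630 and AT1G78410. WT replicate 3 ended only that of TBL45. The differences over these leave-outs ran from -3.10 to -1.96 for AT3G23550, from -2.0 to -1.26 for TBL45, from -1.54 to -1.23 for HTB11, from -1.58 to -1.09 for PUB24, from -1.74 to -1.21 for AT1G78410 and from -1.74 to -1.45 for AT1G66940. For AT1G73630 they ran from -1.48 to -1.05, for AT2G42040 from -1.59 to -1.0 and for AT1G17430 from -1.45 to -1.06.

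Other settings also ended some of these calls. With the 25S level as a covariate, AT2G34620 was at 1.47 (adjusted p = 0.0709), AT1G22160 at 1.30 (adjusted p = 0.0510), AT3G23550 at -2.27 (adjusted p = 0.0806), TBL45 at -1.43 (adjusted p = 0.0845) and AT2G42040 at -1.10 (adjusted p = 0.0757), so these 5 were no longer called. A trended and robust prior ended the call of AT3G23550 (adjusted p = 0.0535), and a fit over all 24 arrays those of AT3G26510 (adjusted p = 0.182) and HTB11 (adjusted p = 0.0516). With the 6 compared arrays by themselves, QQS, AT5G02230, AT3G19680, EXGT-A3, AT3G26510 and AT2G24280 among the 12 rises and AT1G66940, AT3G44450, AT2G36220 and AT3G27770 among the 12 falls were still called.

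**Figure D3:**
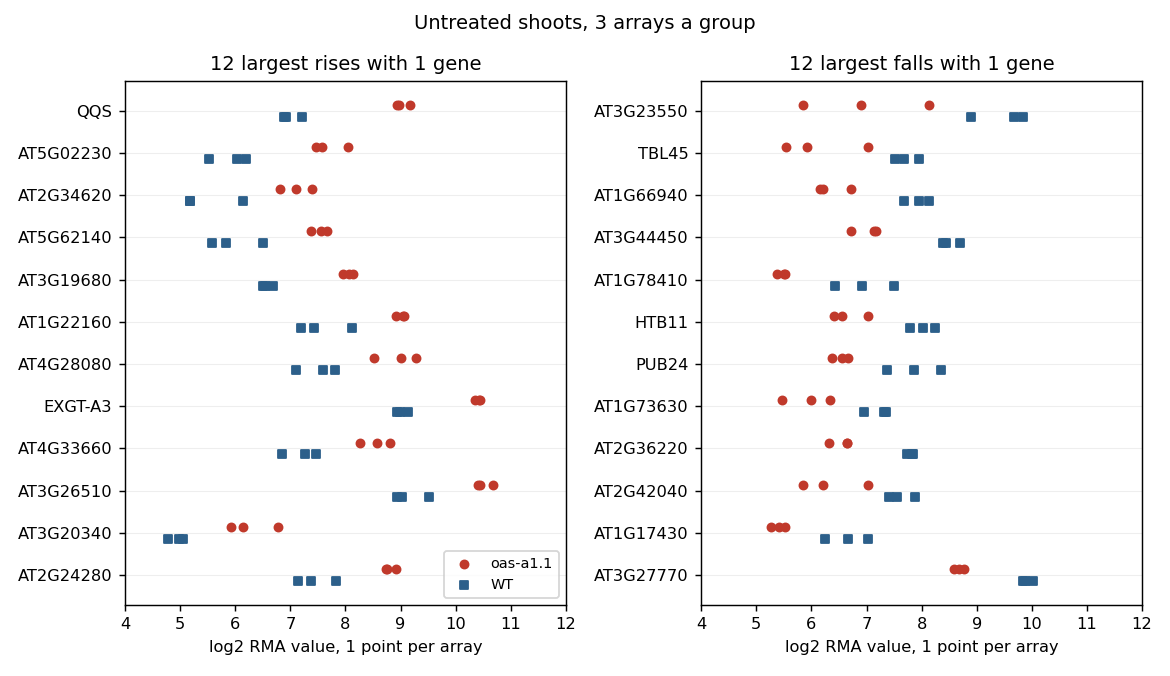
Log2 values (x axis) of the 12 largest rises (left) and 12 largest falls (right) among probe sets with 1 gene, 1 point per array, with the 3 oas-a1.1 arrays as red circles above the 3 WT arrays as blue squares. No gene has overlapping groups, which the choice of genes required, and the spread within a group is largest for the 3 oas-a1.1 arrays of AT3G23550, at 5.85 to 8.13.

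The 15 genes whose calls were kept in each of the 6 leave-outs, listed after their values were seen, include the 7 above and 8 smaller changes. AT1G49200, with a RING-type zinc finger, read 6.30, 6.15 and 6.26 in oas-a1.1 shoots and 5.16, 4.93 and 5.16 in WT shoots (1.15 ± 0.10, adjusted p = 0.000999). AOP1, a 2-oxoglutarate-dependent dioxygenase that neighbours the glucosinolate genes AOP2 and AOP3, read 6.70, 6.33 and 6.42 in oas-a1.1 and 5.40, 5.37 and 5.40 in WT (1.09 ± 0.12, adjusted p = 0.00336). AT1G61740, of a membrane protein family named after bacterial sulfite exporters, read 10.10, 10.22 and 10.15 in oas-a1.1 and 9.43, 9.44 and 9.40 in WT (0.73 ± 0.09, adjusted p = 0.00472). All 3 rises were several times the spread within either group. AT1G28570, a lipase of the GDSL family, rose by 0.89 ± 0.12 (adjusted p = 0.00816). AT1G17665 fell by 1.12 ± 0.13 (adjusted p = 0.00332) and AT1G11210 by 1.00 ± 0.12 (adjusted p = 0.00379). AT1G19310, with a RING-type zinc finger, fell by 0.87 ± 0.12 (adjusted p = 0.00858) and AT1G72340, of the NagB/RpiA/CoA transferase-like superfamily, by 0.57 ± 0.07 (adjusted p = 0.00765).

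Of 34 gene lists on sulfur, stress, defence, growth and photosynthesis, 28 had at least 1 member measured by name and 6 had a called member. The lists with named loci held 303 genes, of which 45 were measured. No gene of the cysteine synthesis list was measured by name, so the other O-acetylserine(thiol)lyases and the serine acetyltransferases were not analysed here. Of the sulfate uptake and assimilation list, 3 of 18 genes were measured and none was called. The ATP sulfurylase APS3, which activates sulfate, was at 8.37, 8.76 and 7.79 in oas-a1.1 and at 8.59, 8.61 and 8.30 in WT (-0.19, 95% interval -0.86 to 0.47). A second ATP sulfurylase, APS4, was at 9.57, 9.24 and 9.12 in oas-a1.1 and at 9.19, 9.35 and 9.44 in WT (-0.02, interval -0.27 to 0.23). Sulfite reductase (SIR), which makes the sulfide that OASA1 uses, was at 9.60, 9.89 and 9.51 in oas-a1.1 and at 9.39, 9.39 and 9.37 in WT (0.28 ± 0.10, interval 0.05 to 0.51, adjusted p = 0.229). The SIR groups did not overlap, and its difference did not pass after adjustment.

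Markers of sulfur limitation and of oxidative stress gave no call, with 2 of 7 and 3 of 9 listed genes measured. BGLU28, a thioglucosidase known to be induced by sulfur limitation, was at -0.30 (interval -0.55 to -0.06, adjusted p = 0.227). Its means of 3.98 in oas-a1.1 and 4.29 in WT were near the low end of the array's scale. AT1G04770 (SDI2), of the same response, was at -0.64 (interval -1.16 to -0.11, adjusted p = 0.238). AT1G04770 was called in 1 of the 6 leave-outs, that without WT replicate 3, whose value of 6.37 lay with the mutant arrays at 6.39, 6.53 and 6.29. The chloroplast ascorbate peroxidase SAPX had all mutant arrays above all WT arrays (0.63, interval 0.08 to 1.18, adjusted p = 0.267), while the thylakoid form TAPX (0.10) and the monodehydroascorbate reductase ATMDAR2 (0.09) had overlapping groups. None of 14 glutathione S-transferases was called (median 0.06, against 0 over all probe sets, with 8 positive and 6 negative differences). GSTU18 had the lowest adjusted p among them, at 0.0735 with a difference of 0.73. None of 5 glutaredoxins (median -0.04) was called.

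Defence and hormone lists showed no call either, but few of their genes were measured. These were 2 of 22 for salicylic acid, 1 of 20 for jasmonate and 7 of 13 for ethylene and defensins. For abscisic acid, dehydration and cold they were 4 of 18, for glucosinolates 3 of 22 and for flavonoids and anthocyanins 2 of 14. The absence of calls thus says little about these pathways as a whole. WRKY53, a senescence and defence factor, was at 6.93, 8.02 and 8.94 in oas-a1.1 and at 8.88, 9.64 and 8.21 in WT (-0.95, interval -1.96 to 0.06, adjusted p = 0.385), so its groups overlapped. SAG101, a partner of EDS1 in salicylic acid defence, was at -0.30 (adjusted p = 0.656). Of 7 defensins, 5 had negative differences and none was called (median -0.25). The glucosinolate synthesis genes AT2G31790 (UGT74C1), BCAT4 and UGT74B1 were at 0.74, 0.43 and 0.02, with adjusted p of 0.222 to 0.994. The anthocyanin genes AT4G14090 and DFR were at -0.24 and -0.04, with overlapping groups for both. The jasmonate marker THI2.1 was at 0.18 and the heat shock gene ATHSP22.0 at 0.07. THI2.1, ATHSP22.0 and DFR were near the low end of the array's scale. Their means were 4.44, 4.22 and 4.48 in oas-a1.1 and 4.26, 4.15 and 4.53 in WT. None of 6 WRKY factors, 10 autophagy genes, 18 expansins or 9 genes named XTH was called, although EXGT-A3, whose symbol kept it off the last list, rose.

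The 6 lists with a called member gave 8 calls, those of QQS, PYE, AT4G33980, LHCB4.2, CYP71B28 and 3 glycosyltransferases. PYE (POPEYE), a bHLH regulator of the iron deficiency response, was at 5.43, 5.08 and 5.37 in oas-a1.1 and at 6.25, 5.85 and 6.15 in WT (-0.79 ± 0.15, adjusted p = 0.0352). It was 1 of 3 measured genes of its list. AT4G33980 (COR28), a clock and cold output gene related to COR27, was at 7.07, 7.04 and 6.67 in oas-a1.1 and at 7.75, 7.63 and 7.66 in WT (-0.75 ± 0.13, adjusted p = 0.0190), while COR27 was at -0.25 and GI, a clock gene, at 0.02. LHCB4.2, a minor antenna protein of photosystem II, averaged 11.84 ± 0.18 in oas-a1.1 and 12.48 ± 0.06 in WT (SD, n = 3 each; -0.64 ± 0.10, adjusted p = 0.0149). All 8 nuclear photosynthesis genes had negative differences (median -0.10), against 49.6% of all probe sets, and LHCB4.2 was the 1 called. LHCB4.1 and LHCB4.3 were at -0.05 and -0.01 (limma adjusted p = 0.909 and 0.994). PSBW and PSAE-1, subunits of the 2 photosystems, were at -0.16 and -0.13 (adjusted p = 0.459 and 0.702). The summed level of these 8 genes was 14.84 to 15.08 in oas-a1.1 and 15.12 to 15.17 in WT.

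The lists of genes named UGT and CYP had 4 calls between them. Of 47 UDP-glycosyltransferases, 1 was higher and 2 were lower, with a median of -0.06, where 1.1% of all probe sets with 1 gene were called. UGT85A5 was at 7.18, 7.37 and 7.14 in oas-a1.1 and at 6.05, 6.54 and 5.97 in WT (1.04 ± 0.20, adjusted p = 0.0319). UGT71C5, known to glucosylate abscisic acid, was at 7.44, 7.37 and 6.83 in oas-a1.1 and at 8.10, 8.07 and 7.98 in WT (-0.84 ± 0.15, adjusted p = 0.0265). UGT84A4 was at 5.16, 4.93 and 5.05 in oas-a1.1 and at 5.55, 5.53 and 5.66 in WT (-0.53 ± 0.10, adjusted p = 0.0252). Of 22 cytochromes P450, CYP71B28 was called, at 8.82, 8.88 and 8.53 in oas-a1.1 and at 7.78, 8.03 and 8.14 in WT (0.76 ± 0.13, adjusted p = 0.0235). A further glycosyltransferase, GT72B1, which its symbol kept off the list and which was named after its values were seen, rose by 0.77 ± 0.15 (adjusted p = 0.0322). Omitting replicate 2 or 3 of the mutant, or 1 or 2 of WT, ended its call, at differences of 0.68 to 0.89. Of the list calls, QQS alone was kept in each leave-out. WT replicate 1 and mutant replicate 2 ended each of the other 7 when left out, WT replicate 2 ended all of these but that of UGT85A5, and mutant replicate 3 ended all but those of LHCB4.2 and CYP71B28. Their differences then ran from -0.91 to -0.68 for PYE, from -0.83 to -0.63 for AT4G33980, from -0.73 to -0.55 for LHCB4.2, from 0.66 to 0.87 for CYP71B28, from -0.59 to -0.48 for UGT84A4, from -0.95 to -0.65 for UGT71C5 and from 0.94 to 1.22 for UGT85A5. With the 25S level as a covariate PYE was at -0.80 (adjusted p = 0.0581) and UGT71C5 at -0.80 (adjusted p = 0.0524), and over all 24 arrays LHCB4.2 had an adjusted p of 0.147 and UGT84A4 of 0.138. With the 6 compared arrays by themselves none of these 7 was called, at adjusted p of 0.0811 to 0.109 by limma.

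**Figure D4:**
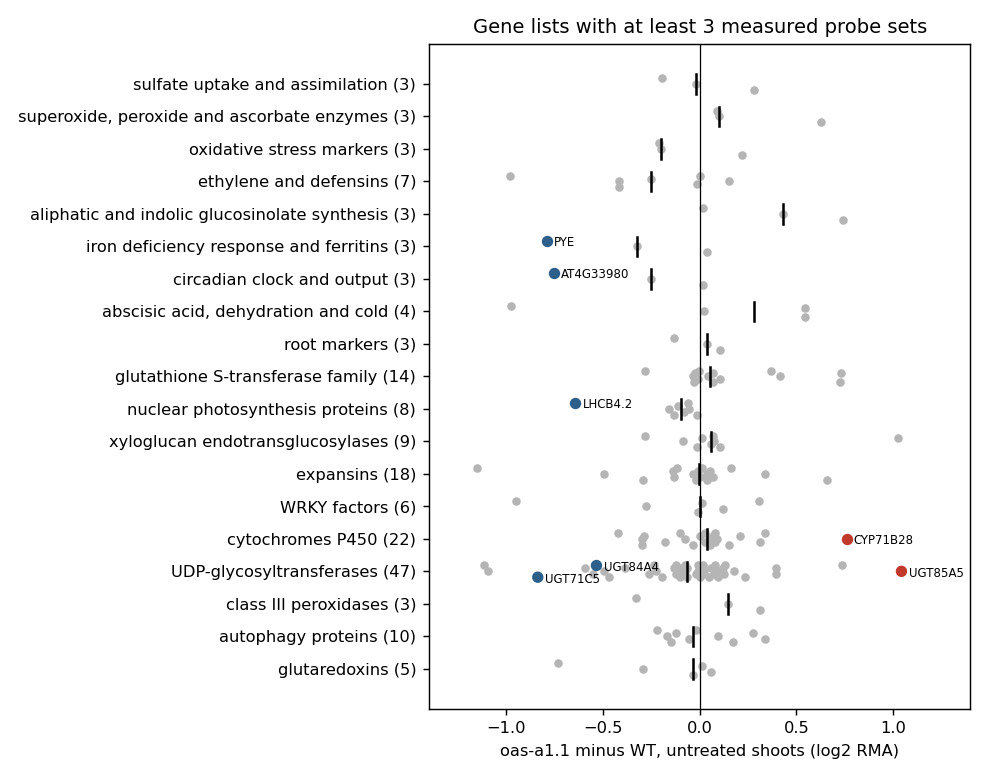
Difference between oas-a1.1 and WT in untreated shoots (x axis, log2) of each measured member of the lists with at least 3 probe sets (rows, with the number of probe sets), 1 point per probe set, called members in red (higher) or blue (lower) and named, and the median of the list as a black bar. Medians lie between -0.32 and 0.43, and 7 calls are seen, with 3 of them among 47 UDP-glycosyltransferases.

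The mutant difference of untreated shoots was next set beside that of cadmium-treated shoots, which uses other arrays. There, 35 probe sets (0.154%) differed between oas-a1.1 and WT. Of the 331 probe sets called in untreated shoots, 3 were called the same way under cadmium and 2 the opposite way. A difference under 0.5 in size was seen there for 284 of the 331. Among all 22746 probe sets the share was larger, at 21682. The median over the 146 higher calls was 0.94 in untreated shoots and 0.02 in cadmium-treated shoots, and over the 185 lower calls -0.80 and -0.03. Since the probe sets were chosen by the untreated arrays, smaller values elsewhere follow in part from that choice. The sign was the same for 179 (54.1%), against 48.8% of all probe sets. The test of the difference between the 2 effects called 101 probe sets (0.444%), 54 higher (0.237%) and 47 lower (0.207%) in untreated shoots. Of these 101, 63 were also called in untreated shoots and 91 had effects of opposite sign. The test holds the untreated arrays that made the 331 calls, and a large difference between effects favours opposite signs. Both counts thus follow in part from how the probe sets were chosen.

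Several of the leading genes of untreated shoots had no such difference under cadmium. AT3G44450 read 9.33, 9.40 and 8.88 in cadmium-treated oas-a1.1 and 9.21, 9.31 and 9.16 in cadmium-treated WT, so the groups overlapped there, and the effects differed by -1.47 ± 0.22 (adjusted p = 0.0198). EXGT-A3 read 10.05, 9.54 and 9.85 in cadmium-treated oas-a1.1 and 10.21, 10.24 and 10.00 in cadmium-treated WT, a difference between the effects of 1.73 ± 0.18 (adjusted p = 0.00277). AT5G02230 read 7.44, 7.15 and 7.48 in cadmium-treated oas-a1.1 and 7.52, 7.93 and 7.73 in cadmium-treated WT (difference between the effects 2.14 ± 0.28, adjusted p = 0.0120). For EXGT-A3 and AT5G02230 the mutant was above WT without cadmium and not above it with cadmium. QQS read 8.87, 8.93 and 8.49 in cadmium-treated oas-a1.1 and 8.35, 8.89 and 7.84 in cadmium-treated WT. Its groups overlapped there (0.40, adjusted p = 0.656), and the difference between its effects, 1.62 ± 0.32, was not called (adjusted p = 0.0561).

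The 2 probe sets called in both treatments with opposite sign were those of AT4G33980 and AT1G17665. AT4G33980 was at 7.57, 7.76 and 7.5 in cadmium-treated oas-a1.1 and at 6.24, 6.58 and 6.52 in cadmium-treated WT (1.16 ± 0.13, adjusted p = 0.00408), against -0.75 in untreated shoots. The effects differed by -1.92 ± 0.18 (adjusted p = 0.00193). For its relative COR27, not called in untreated shoots, the effects differed in the same direction, by -2.74. That call was kept with any one of the 12 shoot arrays left out (range -2.92 to -2.58). AT1G17665, named after its values were seen, was at 6.0, 6.11 and 5.95 in cadmium-treated oas-a1.1 and at 4.61, 4.70 and 4.64 in cadmium-treated WT (1.37 ± 0.13, adjusted p = 0.000974), against -1.12 in untreated shoots, and the effects differed by -2.49 ± 0.18 (adjusted p = 0.000574). AT5G19120, of the aspartyl protease family and also named after its values were seen, was higher in untreated oas-a1.1 shoots by 1.20 (adjusted p = 0.0150) and at -1.10 under cadmium (adjusted p = 0.0540), with effects that differed by 2.30 ± 0.27 (adjusted p = 0.00782). Its untreated call was lost without mutant replicate 2, WT replicate 1 or WT replicate 2, at differences of 1.15 to 1.26.

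Of the differences between effects, those of EXGT-A3, AT5G02230, AT4G33980, AT1G17665 and AT5G19120 were among those called with any one of the 12 shoot arrays left out. So were those of AT1G49200 (1.55), AT1G11210 (-1.35) and AT1G72340 (-0.80). That of AT3G44450 was lost without WT untreated replicate 1 or 2, cadmium-treated oas-a1.1 replicate 1 or 2 or cadmium-treated WT replicate 2, at -1.64 to -1.33 over all leave-outs. Cadmium-treated oas-a1.1 replicates 1 and 2 and cadmium-treated WT replicate 1 also had 25S levels under 7, at 5.38, 4.62 and 5.16, and without the arrays under 7 limma called 0 differences between the effects, with 1530 probe sets at an unadjusted p under 0.05.

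In untreated roots, 81 probe sets (0.356%) differed between oas-a1.1 and WT. Of the 331 called in untreated shoots, 6 were called the same way in roots and 2 the opposite way, and 191 (57.7%) had the same sign, against 51.1% of all. The median in roots was 0.04 over the higher calls and -0.06 over the lower calls. The test of the difference between the shoot and root effects called 173 probe sets (0.761%), 96 higher in shoots (0.422%) and 77 lower (0.339%), with 71 of them among the 331. That test also holds the untreated shoot arrays that made the 331 calls, so such overlap is partly built in. QQS differed alike in both organs, with root means of 6.64 in oas-a1.1 and 4.62 in WT, a difference of 2.02 ± 0.23 (adjusted p = 0.00435), and a shoot minus root difference of 0.00 ± 0.34. AT4G33980 was lower in the mutant in both, by 1.56 in roots (adjusted p = 0.00797). AT2G38180, a GDSL esterase family gene, was higher in both, by 0.94 in shoots (adjusted p = 0.0239) and 1.34 in roots (adjusted p = 0.0183). Its shoot call was lost without mutant replicate 2, WT replicate 1 or WT replicate 2, at differences of 0.80 to 1.12.

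Other leading genes of shoots had no such difference in roots. The effect in shoots exceeded that in roots by 1.46 ± 0.18 for EXGT-A3 (adjusted p = 0.000622), whose root means were 8.41 in oas-a1.1 and 8.48 in WT, and by 2.47 ± 0.35 for AT5G02230 (adjusted p = 0.00125), whose root means were 7.57 and 8.27. Both were called with any one of the 12 arrays left out. AT3G44450 had root means of 4.57 in oas-a1.1 and 4.54 in WT and a shoot minus root difference of -1.52 ± 0.32 (adjusted p = 0.0269), which was lost without WT shoot replicate 1 or 2, mutant shoot replicate 3, either of mutant root replicates 2 and 3 or either of WT root replicates 1 and 2 (range -1.70 to -1.38). Its root means were near the low end of the array's scale, where a fall could hardly be seen. Mutant root replicate 1 had a 25S level of 6.0, under that of the other 5 untreated root arrays.

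**Figure D5:**
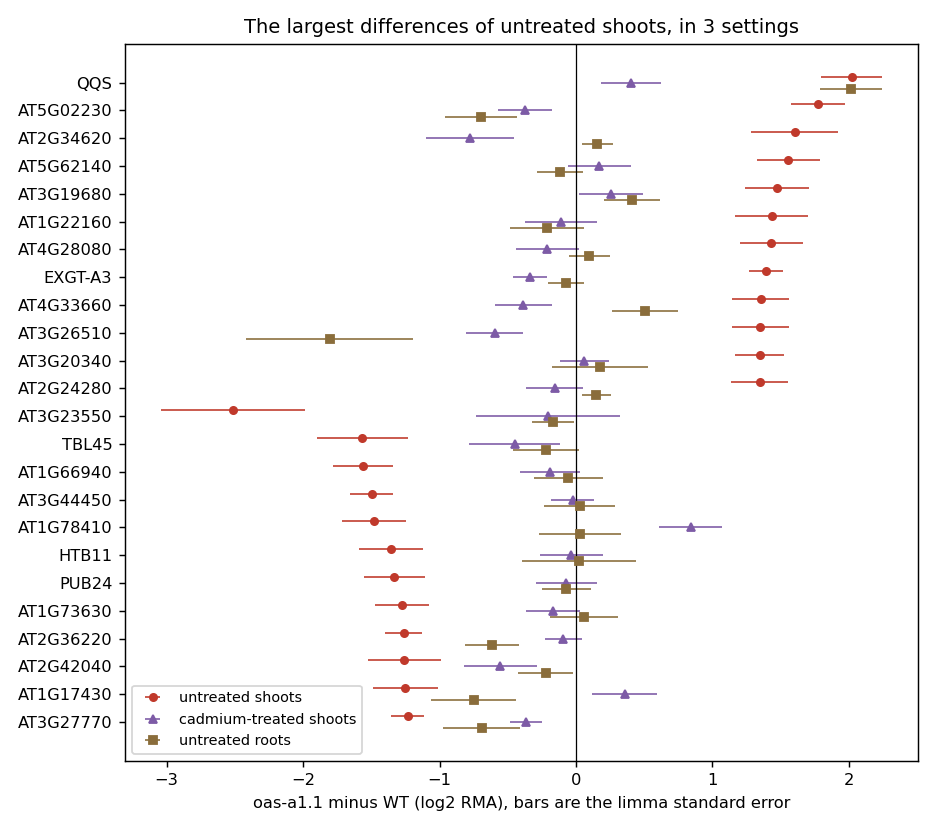
Difference between oas-a1.1 and WT (x axis, log2, bars give the limma SE) for the 12 largest rises and 12 largest falls of untreated shoots (rows), in untreated shoots (red circles), cadmium-treated shoots (purple triangles) and untreated roots (brown squares), 3 arrays a group. QQS at 2.02 in both organs is the rise whose root point lies on its shoot point, and most other genes lie near 0 in the settings that did not choose them.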

How the data were processed

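RNA of 24 samples was hybridised to Affymetrix ATH1 arrays. The deposited values are on a log2 scale, from RMA in the affy package per the submitters' processing notes, with no version given in the sources used here. RMA values are background-corrected and quantile-normalized, so a difference is relative to the other probe sets. Groups came from the labels, and 0 columns were left unmatched. The 64 control probe sets were left out, 22746 were kept without a filter, and 13436 of 13513 gene names were matched to RefSeq (TAIR10.1).

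The 12 shoot arrays were fitted with limma 3.58.1 in R 4.3.3 with 4 group means and empirical Bayes. Shoot and root effects were compared over 24 arrays, and root values come from the root arrays. Tests were two-sided, with Benjamini-Hochberg adjustment over all probe sets and a threshold of 0.05. Intervals are 95% limma intervals. The fit was tested on simulated data. Only 3 arrays a group limit the precision.

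Members and gene lists were chosen with earlier results of these data known. Named genes are the sulfate list, the 12 largest rises and falls with 1 gene and no overlap, up to 3 called members of each list, and up to 3 members of lists with a single sign. COR27, GI, GSTU18, AT2G38180 and the genes marked so in the text were named after their values were seen. Alternatives covered filter, scaling, prior, weights, replicate block, 25S level, arrays in the fit and each array left out.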

Additional observations from a re-analysis of the deposited data

Results flagged for a closer look

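For 8 of the genes named by rule, the mutant difference in untreated shoots departed from that in cadmium-treated shoots by the test of the difference itself, with an adjusted p under 0.05. All 8 were called in untreated shoots, and the test holds those same untreated arrays, so that choice favours a difference. The untreated effect was higher by 2.14 for AT5G02230, by 1.95 for AT3G26510, by 1.74 for AT4G33660 and by 1.73 for EXGT-A3. The untreated minus cadmium-treated effect was -2.32 for AT1G78410, -1.92 for AT4G33980, -1.47 for AT3G44450 and -1.17 for AT2G36220. Those of AT5G02230, EXGT-A3 and AT4G33980 were kept in all 12 leave-outs. The remaining 5 were each lost without WT untreated replicate 1, cadmium-treated oas-a1.1 replicate 1 or cadmium-treated WT replicate 2. All of these but AT1G78410 were also lost without WT untreated replicate 2, AT3G26510, AT4G33660 and AT2G36220 without untreated oas-a1.1 replicate 2, and AT3G44450 and AT4G33660 without cadmium-treated oas-a1.1 replicate 2. AT4G33660 was also lost without untreated oas-a1.1 replicate 1, cadmium-treated oas-a1.1 replicate 3 or cadmium-treated WT replicate 1. Over the 12 leave-outs their values lay at 1.70 to 2.13 for AT3G26510, 1.57 to 1.96 for AT4G33660, -2.58 to -2.05 for AT1G78410, -1.64 to -1.33 for AT3G44450 and -1.28 to -1.06 for AT2G36220.

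For 9 of the genes named by rule, the effect in untreated shoots departed from that in untreated roots by the same kind of test. All 9 were called in untreated shoots, so the same limit applies. The shoot effect was higher by 3.15 for AT3G26510, by 2.47 for AT5G02230, by 1.67 for AT5G62140, by 1.46 for EXGT-A3, by 1.33 for AT4G28080 and by 1.20 for AT2G24280. The shoot minus root effect was -1.52 for AT3G44450, -1.20 for UGT84A4 and -0.91 for UGT71C5. Those of AT5G02230, AT5G62140 and EXGT-A3 were kept in all 12 leave-outs, and the other 6 were each lost without WT shoot replicate 1 or 2, mutant root replicate 2 or WT root replicate 2. Mutant root replicate 3 ended all of these but AT4G28080, and WT root replicate 1 all but AT2G24280. Mutant shoot replicate 2 ended UGT84A4, AT4G28080, AT3G26510 and AT2G24280, and mutant shoot replicate 3 ended AT3G44450, AT4G28080, UGT71C5 and AT3G26510. Mutant root replicate 1 ended AT4G28080 and UGT71C5, and WT root replicate 3 these and AT3G26510. Their ranges were 2.95 to 3.50 for AT3G26510, 1.14 to 1.55 for AT4G28080, 1.04 to 1.39 for AT2G24280, -1.70 to -1.38 for AT3G44450, -1.43 to -1.07 for UGT84A4 and -1.02 to -0.72 for UGT71C5. Some of the 9 values held sizeable root differences that limma did not call. In roots AT3G26510 was at -1.80 ± 0.61 (adjusted p = 0.420), AT5G02230 at -0.70 (adjusted p = 0.534) and UGT84A4 at 0.67 (adjusted p = 0.394). The shoot differences of these genes were 1.35, 1.77 and -0.53. Root means of AT5G62140 (4.55 in oas-a1.1 and 4.67 in WT) and AT3G44450 (4.57 and 4.54) were near the low end of the array's scale.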

How the results depend on the processing

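No called difference of a named gene changed sign in any alternative, while the number of calls moved widely. The main counts were 331 for oas-a1.1 against WT in untreated shoots, 101 for the untreated minus cadmium-treated effect, 173 for the shoot minus root effect, and 3 and 6 for calls shared the same way with cadmium-treated shoots and untreated roots. Median centring of arrays gave 490, 162 and 206 for the first 3, and the upper 60% of probe sets by level 458, 160 and 185. Array weights gave 1850, 1177 and 2176, with 8 and 12 shared. The replicate numbers were not taken to pair the arrays, since not every residual correlation of same-numbered mutant and WT arrays was above 0.1 (-0.215, 0.141 and -0.251 in untreated shoots, 0.074, 0.304 and 0.487 in cadmium-treated shoots, and 0.405, -0.111 and 0.404 in untreated roots), and with the replicate block the counts were 665, 227 and 258. In each shoot group, though, replicate 3 had the highest 25S level. It was 11.07 and 10.36 in untreated WT and oas-a1.1, and 10.09 and 9.03 in cadmium-treated WT and oas-a1.1. Replicate 3 also had the lowest actin 3′ minus 5′ signal of each, at 1.28, 1.08, 1.34 and 1.23. These controls thus went in part with the replicate number. The 6 compared arrays by themselves gave 64, with 3 shared with roots, and all 24 arrays gave 515, 278 for the cadmium difference and 12 shared with roots. The 12 untreated arrays gave 101 for the root difference. Each array left out in turn gave 45 to 838, 23 to 607 and 71 to 394, with 2 to 3 and 2 to 10 shared. Without WT replicate 3, 278 of 838 calls were higher and 560 lower, and with 25S as covariate 143 were higher and 135 lower. Chosen after seeing the data, arrays with 25S at or above 7 gave 1, 0 and 12, with 1 and 1 shared. Without replicate 1 of every group the counts were 53, 0 and 35, with 2 shared with roots; without replicate 2 they were 1, 2 and 6, with 1 and 1 shared; without replicate 3 they were 999, 537 and 264. The cause was not tested; these settings hold fewer arrays, and with 25S at or above 7 the 1 WT untreated array and the 1 cadmium-treated oas-a1.1 array are assumed to vary like the other groups. For the 2 cadmium differences with 0 calls by limma, 1530 (25S at or above 7) and 1669 (without replicate 1) probe sets had an unadjusted p under 0.05, and no other tool was run.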

Other observations

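The families below were chosen after the values were seen, so their counts describe these arrays and carry no test of the family. Among all probe sets with 1 gene 1.1% were called, and among all probe sets 0.642% were called higher and 0.813% lower, and 49.6% had a negative difference. Of the 3 measured genes of the REC group, which set the size of the chloroplast compartment, all 3 rose by at least 1 probe set. AT1G01320 (REC1) read 9.09, 9.62 and 9.48 in oas-a1.1 shoots and 7.67, 8.18 and 8.36 in WT shoots by one probe set (1.33 ± 0.19, adjusted p = 0.0113), and its other probe set, at a mean of 5.21 in oas-a1.1 and 4.70 in WT, was not called (0.51, adjusted p = 0.297). AT1G15290 (REC3) read 5.94, 6.27 and 5.73 in oas-a1.1 and 5.16, 5.26 and 5.25 in WT (0.76 ± 0.15, adjusted p = 0.0331), and AT4G28080 (REC2) is described above. The REC1 call was lost without mutant replicate 2 (difference down to 1.13), and the REC3 call without mutant replicate 2, WT replicate 1 or WT replicate 2 (0.61 to 0.88). In cadmium-treated shoots the differences of REC1, REC2 and REC3 were -0.12, -0.21 and -0.43. The untreated minus cadmium-treated effect was called for REC1 (1.45, adjusted p = 0.0492) and REC3 (1.19, adjusted p = 0.0352). That of REC1 was kept only without untreated oas-a1.1 replicate 1 or untreated WT replicate 3, and that of REC3 only without untreated oas-a1.1 replicate 3, untreated WT replicate 3 or cadmium-treated WT replicate 3.

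Of 13 FCS-like zinc finger genes, 3 were higher and none lower, with 9 positive differences and a median of 0.07, against 0 over all probe sets. Beside AT1G22160, AT3G22550 (FLZ8) rose by 0.93 (adjusted p = 0.0316) and AT5G20700 (FLZ14) by 0.64 (adjusted p = 0.0396). Omitting replicate 2 or 3 of the mutant, or 1 or 2 of WT, ended both calls, at 0.75 to 1.16 and 0.58 to 0.71. Of 19 EF-hand proteins of the calmodulin-like family, 16 had negative differences and 2 were called, with a median of -0.48, against 49.6% negative and 1.1% called as above. These were AT1G73630 and AT3G47480, which fell by 1.11 (adjusted p = 0.0456) and whose call ended when replicate 1 or 2 of either genotype was omitted (-1.33 to -0.97). Of the 19, 7 had groups that did not overlap. WT replicates 1, 2 and 3 read 7.75, 7.33 and 4.37 for AT3G01830 and 7.19, 7.18 and 5.22 for CML38. In both, WT replicate 3 was below the oas-a1.1 mean, 4.87 and 5.85, so the sign came from WT replicates 1 and 2. For CML42 and AT1G73630, WT replicate 3, at 8.05 and 7.36, was not below the other WT arrays. The number of negative differences thus rests in part on WT replicates 1 and 2. All 6 measured markers of pattern-triggered immunity, of 20 listed, had negative differences, and PUB24 was the 1 called. Groups did not overlap for 2 of the 6. They overlapped for PUB22 (-0.12) and PUB23 (-0.33). For these, WT replicate 3, at 4.93 and 5.30, was below the oas-a1.1 means of 5.03 and 5.54, so the sign came from WT replicates 1 and 2. None of 11 heat shock genes picked by locus was called, with AT5G48570 at 1.56 (adjusted p = 0.420).

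Among 3 HHO repressors of nitrate-responsive genes, AT1G68670 (HHO2) rose by 0.87 (adjusted p = 0.0137). AT1G28570 and AT1G28600, of 7 measured GDSL lipases of a chromosomal cluster, rose by 0.89 and 0.71 (adjusted p = 0.00816 and 0.0149). The pectin acetylesterase AT1G57590 rose by 1.29 (adjusted p = 0.0166) while AT3G05910 of the same family fell by 1.00 (adjusted p = 0.0263). Of these 5 calls that of AT1G28570 was kept in each leave-out. Omitting replicate 2 of either genotype ended the other 4 calls, as did WT replicate 1 for all but AT1G28600 and mutant replicate 3 for AT1G28600 and AT1G57590, at 0.76 to 0.99 for AT1G68670, 0.65 to 0.81 for AT1G28600, 1.14 to 1.53 for AT1G57590 and -1.13 to -0.76 for AT3G05910. AT3G52740 (BIC1) was at 0.19 (adjusted p = 0.750), while its relative AT3G44450 fell.

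Near OASA1 on the chromosome, 10 of the genes within 10 protein-coding genes on either side were measured and 2 were called, against 1.1% of all probe sets with 1 gene. SECE1, a subunit of the protein translocase of thylakoids and the gene just before OASA1 in the order of the table used, read 8.00, 7.96 and 7.76 in oas-a1.1 and 8.56, 8.62 and 8.55 in WT (-0.67 ± 0.11, adjusted p = 0.0157). AT4G14930, of the SurE phosphatase family, read 8.59, 7.86 and 8.19 in oas-a1.1 and 6.98, 7.07 and 7.33 in WT (1.09 ± 0.18, adjusted p = 0.0179). SECE1 was at -0.13 in cadmium-treated shoots and -0.19 in untreated roots, and AT4G14930 at -0.71 and 0.04. Both calls were lost without mutant replicate 3, WT replicate 1 or WT replicate 2, and that of SECE1 also without mutant replicate 2, at -0.72 to -0.60 and 0.90 to 1.26. Of the 148 called genes, 3 pairs were next to each other, AT1G33590 and AT1G33600 (-0.91 and -1.08), AT4G33660 and AT4G33666 (1.35 and 1.21), and AT1G73480 and AT1G73490 (-1.10 and 0.49).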
